A study of Drosophila melanogaster with 4 samples.

Results

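The regions described here are the intermediate-length H3K18ac clusters of 3 autosomal arms of Drosophila melanogaster, 2L, 3L and 3R. They are clusters of the combined list with a length of at least 4 kb and below 10 kb that met, by at least 1 bp, an enriched cluster in each ChIP replicate. They numbered 596, out of 7536 clusters in the combined list and 4605 on these arms. They were chosen by their length in the combined list and their overlap with the replicate lists, so length and overlap are given as description, with no test.

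The libraries came from whole wild-type Oregon-R embryos aged 14 to 16 h, with 2 chromatin immunoprecipitation (ChIP) libraries and 2 input libraries. All 4 share strain, age and genotype, and no other treatment is labelled. Fixation was with 1.8% formaldehyde, and the antibody against acetylated lysine 18 of histone H3 came from a lot labelled as new. A whole embryo mixes many cell types, so a cluster can stand for a mark present in all of them or in a few. Replicate 1 held 4370 clusters and replicate 2 held 4910. Read depth is unknown for each library, and the labels do not say if the replicates were separate embryo collections; their spread may then be technical only.

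H3K18ac is a mark of active promoters and enhancers, and in flies it is deposited mainly by the acetyltransferase Nejire, the CBP homologue. Acetylated lysine tails are bound by bromodomain proteins, and the mark is removed by histone deacetylases. A narrow cluster can come from a single promoter or enhancer, while a long one can span several neighbouring elements or a whole regulatory landscape. Genes at the positions below are not named, because no annotation of FlyBase r5, the build of the coordinates, was used here.

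The intermediate clusters held 3.84 Mb in all, 20.6% of the bases that the combined list covered on these arms although they were 12.9% of its clusters there. Among the 1384 clusters of any length seen in both replicates on these arms they were 43.1% by number and 30.1% by bases. A further 403 were shorter than 4 kb and 385 were of 10 kb or more, and these serve as comparison below. Of 723 clusters of the right length on the 3 arms, 82.4% (95% exact interval 79.5 to 85.1) met both replicates. Over all lengths on these arms the share was 30.1%, and since the rule used this overlap nothing is read from the difference. The 127 that failed the overlap were 59 seen in replicate 1 alone, 53 in replicate 2 alone and 15 in neither. Their median lengths were 4633, 4787 and 4633 bp, against 6214 bp for the members.

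Member lengths ran from 4007 to 9955 bp, with the central 50% between 4936.5 and 7771 bp. Shorter members were more frequent, with 155 below 5 kb, 120 from there to 6 kb, 107 up to 7 kb, 82 up to 8 kb, 63 up to 9 kb and 69 longer than that. Scores of the 3 clusters nearest each length limit, on either side, overlapped. So few clusters cannot show if scores break at these limits. The 3 clusters just under 4 kb had combined scores of 0.63, 0.47 and 0.39, and the 3 shortest members had 0.58, 0.50 and 0.55. The 3 longest members had scores of 0.79, 0.72 and 0.39, and the 3 clusters just over the upper limit had 0.62, 0.44 and 0.55.

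Members were found in every decile of the 3 arms, with the fewest, 11, in the one nearest the centromere on 3L and in decile 7 of 2L. Arm 2L held 173, 3L held 211 and 3R held 212, which is 7.52, 8.60 and 7.60 per Mb. They covered 4.67%, 5.75% and 4.87% of these arms. The number of members per reproducible cluster of 10 kb or more was similar from arm to arm, at 1.48 on 2L, 1.61 on 3L and 1.55 on 3R. Those of 10 kb or more numbered 117, 131 and 137 on these arms, and reproducible clusters under 4 kb 112, 151 and 140. Short clusters were thus fewer than broad ones on 2L and more on 3L and 3R. Each of the 74 full windows of 1 Mb held at least 1 member, with a median of 8 and a maximum of 17. The richest windows were 3L from 16000001 to 17000000 with 17 members, 3L from 1000001 to 2000000 with 15, and 2L from 1 to 1000000 with 14. The windows 2L from 19000001 to 20000000 and the first Mb of 3L also held 14.

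Rich windows for members were only partly those rich in broad clusters. Across the 74 windows the number of members and the number of clusters of 10 kb or more had a Spearman's rho of 0.27 and a Pearson's r of 0.35. For clusters under 4 kb these values were 0.38 and 0.36. Windows of one arm share libraries and neighbouring sequence, so these are descriptions. The first Mb of 3L, covered to 36.2% by combined clusters of 10 kb or more, held 14 members, whereas the window with the most members was covered to 11.1%.

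**Figure D1:**
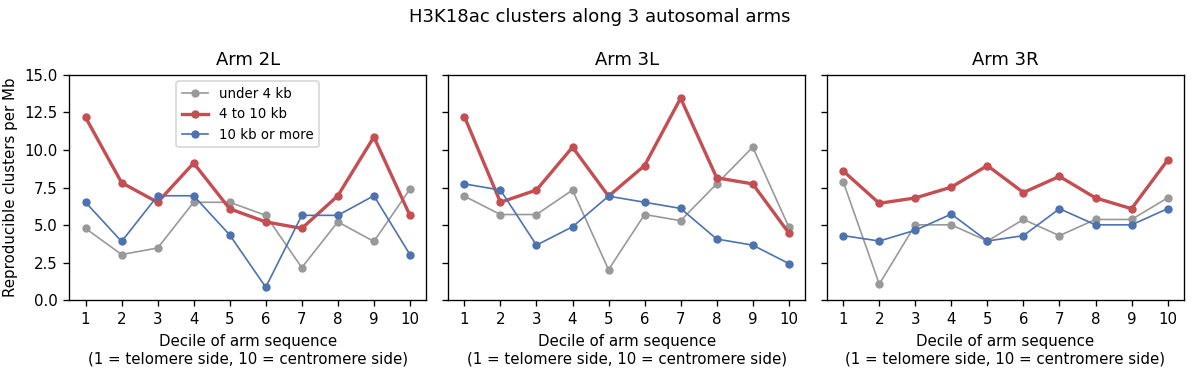
Reproducible H3K18ac clusters per Mb in each decile of arms 2L, 3L and 3R, numbered from the telomere side (1) to the centromere side (10), for clusters under 4 kb (grey), of 4 to 10 kb (red) and of 10 kb or more (blue). Members were present in every decile, with the lowest number, 11, in decile 10 of 3L and in decile 7 of 2L.

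At the centromere side the arms differed. The last Mb of the sequence held 2 members on 2L and 0 on 3L, while the corresponding Mb of 3R held 10. The rest of each arm held 7.77, 8.96 and 7.51 members per Mb, so of these ends only that of 3R was as populated as the rest of its arm. Clusters of 10 kb or more followed the same order, with 0, 0 and 8 in that Mb, while those under 4 kb numbered 5, 4 and 7. The longest stretch without a member on 3L was 1451873 bp long and ran from 23091685 to the end of the arm at 24543557. It was not empty: it held 16 combined clusters, 6 of them short and seen in both replicates. The longest such stretch on 2L, from 15438221 to 16252159 (813939 bp), held 17 combined clusters and none that was in both replicates. That on 3R, from 6508967 to 7392947 (883981 bp), held 29 combined clusters, 6 of them short and reproducible. None of the 3 stretches held a reproducible cluster of 10 kb or more. Mappability was not measured, and the kind of sequence at these arm ends was not compared. The difference between arms at the centromere side is therefore a description.

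Members stood close to other clusters, but mostly not beside a broad one. The gap to the nearest combined cluster of any length had a median of 565 bp, while the gap to the nearest one of 10 kb or more had a median of 33792 bp, with the central 50% between 7632 and 101608 bp. Of 596 members, 112 (18.8%, 95% exact interval 15.7 to 22.2) lay within 5 kb of a combined cluster of 10 kb or more, where 13.5% of all combined clusters on these arms did. A further 228 lay at 5 to 50 kb and 256 (43.0%, 38.9 to 47.0) beyond 50 kb. No value over all combined clusters of these arms is given for this last share or for the gap to any cluster. Neither is therefore read as a trait of members. The nearest neighbour of a member was a cluster of 10 kb or more in both replicates in 79 cases (13.3%), another member in 102 (17.1%), a short reproducible cluster in 50 (8.39%) and a cluster not seen in both replicates in 365 (61.2%). These classes made up 8.36%, 12.9%, 8.75% and 69.9% of the combined clusters on the arms.

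By arm the median gap to a broad cluster was 32961 bp on 2L, 25997 bp on 3L and 50074 bp on 3R. By length it did not move in one direction, from 44299 bp at 4 to 5 kb through 26794 bp at 5 to 6 kb and 54277 bp at 8 to 9 kb to 27469 bp at 9 to 10 kb. Members also lay near each other, with a median gap of 21107 bp between a member and the next, and 168 of them (28.2%) within 5 kb of another, where 20.6% of all combined clusters on these arms had a member that near.

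Set against the other classes, members held a middle position. The median gap to the nearest other combined cluster of 10 kb or more was 62851 bp for reproducible clusters under 4 kb, 33792 bp for members and 18997 bp for clusters of 10 kb or more. The shares within 5 kb were 10.2%, 18.8% and 28.1%. Distances were also taken to the clusters of 10 kb or more in each replicate list. In replicate 1 the median was 101890 bp for members and 143963 bp for clusters under 4 kb. In replicate 2 these values were 196842 bp and 230063 bp. The median was lower for members in both lists, by 37647 bp ± 6260 (SD, n = 2) on average. Paired over 2 replicates, an exact two-sided permutation test can give no p below 0.5, so this difference is a description and no test of it was possible.

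**Figure D2:**
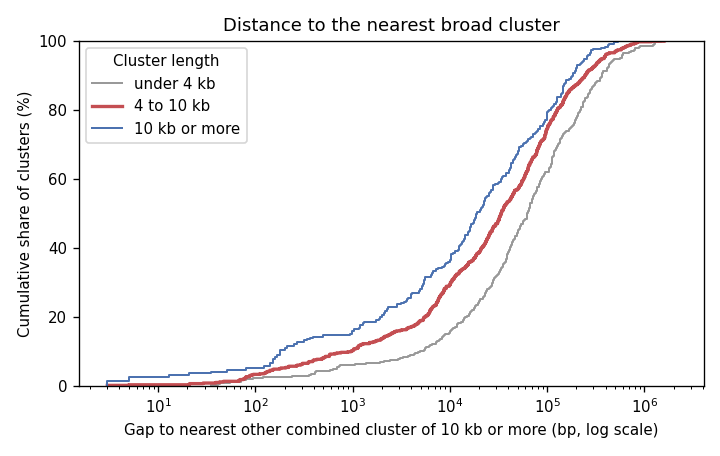
Cumulative share of reproducible clusters (vertical axis, %) against the gap to the nearest other combined cluster of 10 kb or more (horizontal axis, bp, log scale), for clusters under 4 kb (grey), of 4 to 10 kb (red) and of 10 kb or more (blue). The medians were 62851, 33792 and 18997 bp.

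The 5 members farthest from a broad cluster were on 2L and 3R. Farthest was 2L from 22872106 to 22876120, at 1621791 bp, followed by 2L from 22440152 to 22444168, at 1189837 bp. Both are in the last Mb of 2L, they are the only members there, and both rank among the 3 shortest members. Their combined scores were 0.50 and 0.55. The next 3 sit close together on 3R, from 8540630 to 8548426, from 8522836 to 8529578 and from 8489006 to 8495014, with gaps of 856463, 838669 and 804839 bp and scores of 0.58, 0.59 and 0.43. Each of the 5 was found in both replicates, the last with replicate clusters over only 23.2% and 35.8% of its length.

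Replicate clusters covered about 65% of a typical member. The median covered share was 67.2% in replicate 1 and 61.8% in replicate 2, or 64.5% ± 3.75 (SD, n = 2). For clusters under 4 kb the medians were 73.5% and 75.8%, and for those of 10 kb or more 87.5% and 78.0%, so of the 3 classes members had the lowest median in each replicate, a description without a test. Replicate 1 covered more than replicate 2 in 351 members (58.9%, 95% exact interval 54.8 to 62.9). At least 50% was covered in both replicates for 302 members, and less than 50% in both for 80. The counts of members in this paragraph are not set against the share over all reproducible clusters, so they are descriptions.

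Coverage by the replicates differed with distance from a broad cluster. Among the 112 members within 5 kb of a combined cluster of 10 kb or more, the median covered share was 68.5% in replicate 1 and 49.6% in replicate 2. At 5 to 50 kb these medians were 67.1% and 62.6%, and beyond 50 kb they were 66.8% and 66.3%. Over the 3 arms together replicate 1 was nearly level, while replicate 2 was lowest beside broad clusters. Replicate 1 covered the larger share in 88 of the 112 nearest members (78.6%), in 128 of 228 (56.1%) and in 135 of 256 (52.7%). In the nearest class replicate 1 had the higher median on each arm, with medians of 81.0% and 42.6% on 2L (37 members), 69.1% and 52.1% on 3L (43) and 63.3% and 51.5% on 3R (32). Farther away the arms differed. Beyond 50 kb the medians were 70.1% and 68.2% on 2L, 67.2% and 60.7% on 3L, and 62.7% and 68.2% on 3R, where replicate 2 was the higher. Replicate 1 was not level on 2L or 3R taken alone, where its medians at 5 to 50 kb were 62.5% and 69.8%. On 3L that median was 69.9%.

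Some members were joined to a neighbour in one list. In replicate 1, 30 members were met by a cluster that also reached another combined cluster, against 2 in replicate 2, and no member was joined in both. Of these 30, 12 lay within 5 kb of a broad cluster. Without joined members the nearest class had medians of 65.8% and 49.6% (100 members). Score percentiles, each a place within its own list, also varied with distance. In the list of replicate 1 the median member stood at 65.1 in the nearest class, 59.2 at 5 to 50 kb and 57.3 beyond 50 kb. In the list of replicate 2 it stood at 48.7, 58.3 and 62.0, so over all members the lists ran in opposite directions. With joined members left out, replicate 1 gave 62.8, 56.9 and 57.9 and replicate 2 gave 45.7, 56.7 and 62.0. Replicate 1 then fell no further beyond 50 kb. By arm, with joined members kept, replicate 1 gave 62.8, 53.3 and 58.5 on 2L, 65.3, 64.7 and 58.4 on 3L, and 64.1, 55.1 and 56.2 on 3R. Replicate 2 gave 44.0, 51.9 and 60.5 on 2L, 49.9, 59.3 and 56.3 on 3L, and 49.1, 61.9 and 65.4 on 3R. Replicate 1 thus fell throughout on 3L only, where replicate 2 did not rise throughout. Among clusters under 4 kb within 5 kb of a broad one the medians of coverage were 67.5% and 60.0% (41 clusters). For such short clusters they were 71.6% and 77.4% at 5 to 50 kb, and 75.1% and 78.5% beyond 50 kb. Both replicates were thus lowest beside broad clusters in this class, so low coverage by replicate 2 there was not particular to members. With 1 value per replicate these contrasts have no test. On these arms replicate 1 had 210 clusters of 10 kb or more and replicate 2 had 149, and the part of this difference between the lists in the contrast was not tested.

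**Figure D3:**
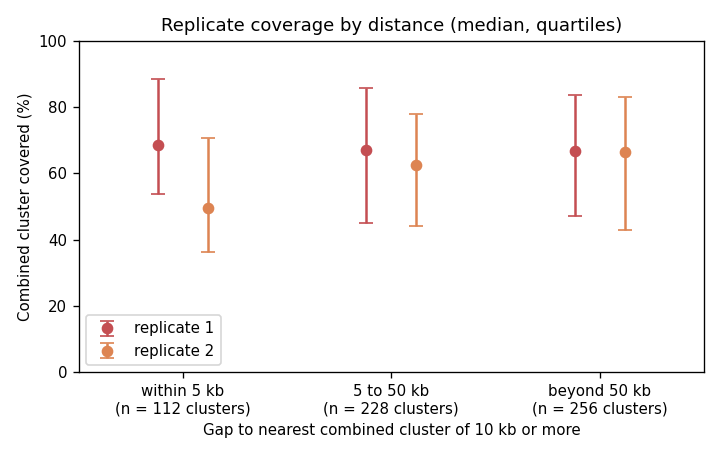
Share of each member covered by clusters of replicate 1 (red) and replicate 2 (orange), in %, by the gap to the nearest combined cluster of 10 kb or more. Points are medians and bars the quartiles over members; the replicates are apart within 5 kb (68.5% and 49.6%) and close together beyond 50 kb (66.8% and 66.3%).

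In the replicates 51.7% of members were a single cluster each (308 of 596, 95% exact interval 47.6 to 55.8), a share close to the 53.1% of all reproducible clusters on these arms. Of clusters under 4 kb, 95.5% were single in both, and of those of 10 kb or more, 10.9%. Replicate 1 split 184 members, into 2 pieces in 157 cases, 3 in 26 and 4 in 1. Replicate 2 split 190, into 2 pieces in 173 cases, 3 in 15 and 4 in 2. The replicates often split different members, with 86 split in both, 98 in replicate 1 alone and 104 in replicate 2 alone. In 53 of the 86 a gap of one replicate overlapped a gap of the other. Single clusters were most frequent among the shortest members, 76.8% at 4 to 5 kb, against 45.8% at 6 to 7 kb. They were least frequent at 8 to 9 kb, with 17.5%, and made up 23.2% at 9 to 10 kb.

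The most fragmented members were met by 7 replicate clusters each. On 2L from 14626240 to 14635832 (9593 bp) these were 4 of replicate 1 and 3 of replicate 2, which covered 71.0% and 60.9%. There replicate 1 ran on to 14643506 with a cluster that also reached another combined cluster. Only 38.4% of this member was covered by both replicates. On 3R from 8189768 to 8199158 the replicate clusters were 3 and 4, which covered 53.0% and 69.0%. The rule next named 3L from 17526102 to 17532320, with 3 and 3 pieces over 80.7% and 67.8% of its length. In each of these members the pieces covered more than 50% of the length in both replicates.

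Most uncovered sequence lay outside the outermost replicate edges, at the ends of members, and not between the clusters of a replicate. Interior gaps made up 14.1% of the uncovered bases in replicate 1 and 11.9% in replicate 2. In clusters of 10 kb or more these shares were 45.7% and 47.8%. A combined cluster met by 1 cluster of a replicate has no interior gap by definition, so these shares depend on the number of pieces. Clusters of 10 kb or more were less often single, and the contrast with them is a description. In the middle of members, between 40% and 60% of their length, 76.7% of members were covered by replicate 1 and 74.5% by replicate 2. In the first 1% of the length these shares were 14.9% and 5.54%, and in the last 1% they were 19.6% and 8.05%.

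**Figure D4:**
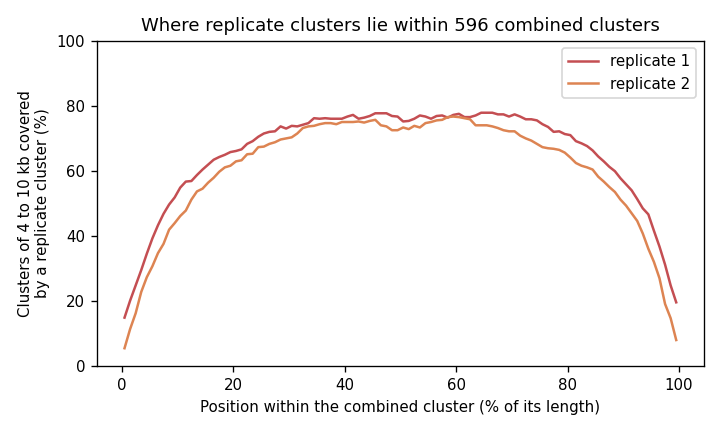
Share of the 596 members covered by a cluster of replicate 1 (red) or replicate 2 (orange), in %, at each position along the combined cluster, scaled from 0 to 100% of its length. Both replicates are high and nearly level over the middle (means of 76.7% and 74.5%) and low at the outermost 1% on either side.

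The replicates met on the same bases in most members. The share of a member's bases covered by both had a median of 42.9%, and the bases shared, as a percentage of those covered by either (Jaccard index), had a median of 57.4%. For clusters under 4 kb the median Jaccard index was 70.4% and for those of 10 kb or more 75.8%. In 22 members (3.69%, 95% exact interval 2.33 to 5.54) the clusters of the replicates had no base in common, although both met the combined cluster. Among them was the member least covered by a single replicate, 2L from 8852696 to 8861736 (9041 bp). There replicate 1 had 2 clusters over 56.0% of the length, and replicate 2 had 1 cluster, from 8855898 to 8857205, over 14.5%. Next least covered were 3L from 13133350 to 13142424, with 54.3% and 15.0%, and 3R from 23561914 to 23571200, with 15.4% and 62.5%. Here the lower value belonged to replicate 2 in the first case and to replicate 1 in the other. The share of members with no base in common is a description, with no value over all reproducible clusters beside it.

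Edges of the replicate clusters lay inside those of the combined cluster. Over the 308 members with 1 cluster in each replicate, the start lay inside in 90.6% of members for replicate 1 and 95.1% for replicate 2, and the end in 88.0% and 94.2%. The inset per side, as the mean of the medians at start and end, came to 539 bp for replicate 1 and 698 bp for replicate 2, or 619 bp ± 113 (SD, n = 2). It was 229 bp ± 5.30 for clusters under 4 kb and 309 bp ± 49.9 for those of 10 kb or more. In these 308 members the median length was 5357 bp in the combined list, 3632 bp in replicate 1 and 3342 bp in replicate 2.

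Start and end differed between the replicates by a median of 564 bp and 494 bp, regardless of sign. Both edges were within 500 bp in 84 of 308 members (27.3%, 95% exact interval 22.4 to 32.6), where 40.4% of all reproducible one to one clusters on these arms were. The share was 50.9% in clusters under 4 kb and 40.5% in the 42 one to one clusters of 10 kb or more. At least 1 edge was within 500 bp in 216 members (70.1%), and neither edge in 92 (29.9%). Of these 92, start and end were displaced to the same side in 67 and to opposite sides in 25. In 17 of the 67 the displaced clusters had no base in common, so each replicate had marked another part of the member. The start of replicate 2 lay a median of 98 bp to the right of that of replicate 1, and its end 78 bp to the left. The cluster of replicate 1 was the longer in 178 members (57.8%, 95% exact interval 52.1 to 63.4). The cluster of replicate 2 lay within that of replicate 1 in 89 members (28.9%), and the opposite held in 49 (15.9%).

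The sharpest agreement was at 3R from 14975094 to 14979602, where replicate 1 ran from 14976461 to 14978495 and replicate 2 from 14976476 to 14978498, differences of 15 and 3 bp. Those clusters covered only 45.1% and 44.9% of the member. At 3L from 7521544 to 7526342 the starts differed by 48 bp and the ends by 38 bp, and 94.2% and 96.0% of the member was covered. At 2L from 22872106 to 22876120, the member farthest from a broad cluster, they differed by 83 and 21 bp. The largest differences all came from a long cluster of replicate 1 that joined the member to a neighbour. At 3L from 760164 to 769566 replicate 1 ran on to 823610, 54148 bp past the end in replicate 2, although the starts were 101 bp apart. At 2L from 16533176 to 16537522 replicate 1 began 15896 bp earlier, and at 2L from 8543414 to 8549758 it ended 9402 bp later. These 3 members lay 67, 183 and 141 bp from a combined cluster of 10 kb or more.

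**Figure D5:**
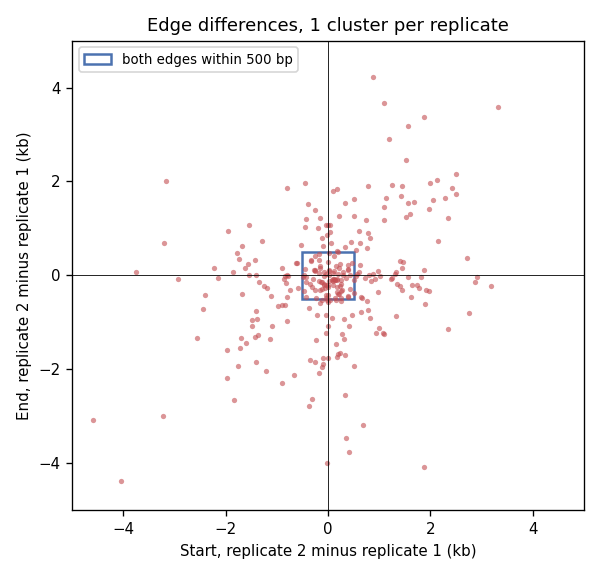
Difference between replicates in the start (horizontal axis) and end (vertical axis) of the cluster, replicate 2 minus replicate 1, in kb, for 300 of 308 members with 1 cluster in each replicate; 8 lie outside the limits of 5 kb. The blue square marks both edges within 500 bp, which held 84 members.

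Scores put the members in the upper part of the combined list and near the middle of the replicate lists. Scores are the authors' own and have no stated scale, so only ranks within a list are compared. The median member was at percentile 81.0 of the combined list, where 100 is the highest score, with the central 50% between 68.6 and 89.0. By the highest-scoring cluster that met it, it was at percentile 60.0 in replicate 1 and 58.7 in replicate 2, or 59.4 ± 0.869 (SD, n = 2). A percentile is a place within its own list. The combined list holds many more clusters, so its percentiles are not set against those of the replicates, and the SD describes only how near the places in the replicate lists were. Clusters under 4 kb had medians of 67.3, 28.6 and 32.4 in the 3 lists, and those of 10 kb or more 92.6, 86.2 and 86.9. Longer clusters were more often met by several replicate clusters, of which the highest score was taken. This can raise their places in the replicate lists, so the difference between classes there is a description. In the combined list 381 members (63.9%) were in the top score quartile, where 21.2% of all combined clusters on these arms were, and 7 were among its 100 highest. Score and length go together in these lists, and the rule used length, so nothing is read from this share.

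Within the members, length had a weak relation with score, with a Spearman's rho of 0.25 over 596 members. The median combined percentile was 75.6 at 4 to 5 kb and 83.8 at 9 to 10 kb. The replicates ranked members similarly but not tightly, with a rho of 0.52 between their scores, against 0.28 for clusters under 4 kb and 0.71 for those of 10 kb or more. In both replicates 102 members were in the top score quartile and 19 in the lowest. These counts have no share over all reproducible clusters of the arms beside them, and nothing is read from them. Members of one library share that library, so these values are descriptions.

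Higher-scoring members were those on which the replicates overlapped most. Over the lowest to the highest quartile of the members' combined score, the median Jaccard index was 35.1%, 46.3%, 62.1% and 82.9%. Members with no base in common numbered 18, 4, 0 and 0. Both edges were within 500 bp in 20.7% of the one to one members of the lowest quartile (82 members) and in 47.6% of those of the highest (103). The combined score was made from the same libraries, so it is no independent measure of agreement. Distance to a broad cluster had nearly no relation with the combined score, with a rho of 0.01 and medians of 35267 bp in the lowest and 38953 bp in the highest quartile.

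The 10 highest-scoring members, 3 on 2L, 3 on 3L and 4 on 3R, were single clusters in both replicates. First was 2L from 2748688 to 2756048 (7361 bp), with a combined score of 1.14 (rank 19 of 7536), rank 2 in replicate 1 and rank 25 in replicate 2. Its starts differed by 149 bp and its ends by 525 bp, and it lay 100981 bp from a broad cluster. At 3L from 3057436 to 3062158 (4723 bp, combined rank 40) both edges agreed within 124 bp, with ranks 43 and 30 in the replicates. At 3L from 16399462 to 16405186 (5725 bp, combined rank 47) the ranks were 20 and 67. It lies in the 1-Mb window that held the most members.

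The members of this group on 3R came next. That from 5917576 to 5926694 (9119 bp, combined rank 64) had ranks 48 and 22, and starts 731 bp apart. That from 22972942 to 22977150 (4209 bp, combined rank 83) is among the shorter members and had ranks 115 and 125. That from 25883422 to 25893098 (9677 bp, combined rank 90) had the second highest Jaccard index of the 10, 97.3%, with ranks 152 and 108. That from 2911088 to 2917828 (6741 bp, combined rank 114) ranked 245 in replicate 1 and 64 in replicate 2.

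The remaining members of this group were on 2L and 3L. At 2L from 16280718 to 16287504 (6787 bp, combined rank 97) the ranks were 66 and 309, and a combined cluster of 10 kb or more lay 303 bp away. At 2L from 19572102 to 19578024 (5923 bp, combined rank 113) they were 50 and 477, with no broad cluster within 145313 bp. The last was 3L from 760164 to 769566 (9403 bp, combined rank 135), with ranks 104 and 234, described above for its joined cluster in replicate 1. Among the 10, replicate 1 covered 89.1% to 100% of the member and replicate 2 80.5% to 94.3%. The longest members were more mixed. The longest, 3R from 26388202 to 26398156 (9955 bp, combined score 0.79), was covered to 95.2% and 100%. The third longest, 3L from 5829018 to 5838920 (9903 bp, score 0.39), had 1 cluster of replicate 1 over 18.1% of its length and 2 clusters of replicate 2 over 43.7%. The shortest, 3R from 26883752 to 26887758 (4007 bp, score 0.58), was a single cluster in both, covering 89.4% and 98.5%.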

How the data were processed

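The 2 ChIP replicate lists and the combined list were used; the inputs were not analysed on their own. Bowtie 0.12.7 is named in the submitters' processing notes. Clusters are regions of significant enrichment in FlyBase r5 coordinates, per the file headers. Each score is the authors' deposited value, with no stated scale. How replicates were combined, the caller and its threshold: not given in the sources used here. No read depth came with them.

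Computation used Python 3.11.15 (scipy 1.17.1, numpy 2.4.6, pandas 2.3.3; figures: matplotlib 3.10.9). Overlap meant at least 1 bp. Distance was the gap between nearest ends on an arm, and a member's replicate edges were the outermost of the clusters that met it. Intervals are 95% Clopper-Pearson: they hold for counting error alone and take clusters as independent. The functions were tested on simulated lists with known edges, pieces and gaps. The members, comparisons and classes were chosen with earlier results of these data known; the classes by distance and by score quartile were added after the lists had been seen. Named regions are the 10 highest-scoring, the 3 longest and shortest, the 5 farthest from a cluster of 10 kb or more, those with the 3 smallest and 3 largest summed edge differences, the 3 most fragmented, the 3 least covered, the 3 richest windows and the longest stretch without a member per arm. Alternatives were stricter overlap, higher scores, merging within 1 kb, other lengths and distances, other tolerances, other rankings and leaving out each replicate.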

Additional observations from a re-analysis of the deposited data

How the results depend on the processing

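Of 29 alternative values, 17 stayed the same, 12 moved and none reversed. Only the excess distance of short clusters has a sign, so no other value could have reversed. A number stayed the same within 1.5 times, a share of members within its 95% exact interval, and any other value if it moved by at most 1 SD of the replicates. For short clusters the excess distance was 29059 bp in the combined list, against 37647 bp ± 6260 (SD) in the main setting. That is a move beyond 1 SD, yet it is counted here among the 17 that stayed the same. Each of 2 replicates lies within 1 SD of their mean, so leaving one out could not move a mean over both, and the SD of the distance (67142 bp) exceeds its median, so an unmoved distance says little. Leaving a replicate out can only add members, up to the 723 clusters of the right length, so it could not move their number either. The number of members, 596, was 302 with at least 50% covered in each replicate, 267 when clusters below the median score of each list were dropped, 410 after merging within 1 kb, and 649 to 655 with 1 replicate left out. Median coverage, 64.5%, was 78.7% with at least 50% covered in each replicate and 42.1% when lower-scoring replicate clusters were dropped, both of which the choice itself sets, and 61.8% to 67.2% with 1 replicate left out. The median distance of 33792 bp was 149366 bp when broad clusters came from the replicate lists, which hold 210 and 149 of them on these arms against 387, and 32405 to 33531 bp with 1 replicate left out. Edge agreement, 27.3%, was 19.8% over all members by outermost edges, 12.3% at 250 bp and 47.7% at 1000 bp. Single clusters in both replicates, 51.7%, were 80.2% after merging within 1 kb and 37.4% of all 596 when lower-scoring replicate clusters were dropped, which counts members left with none as not single. The score percentile, 59.4, was 64.5 when ranked on the 3 arms alone and 53.7 by length-weighted scores, and 58.7 to 60.0 with 1 replicate left out. A length-weighted mean of several scores cannot exceed the highest of them, so that alternative could not raise the value. The cause of the shift on the 3 arms alone was not tested. The excess distance of short clusters was 33221 to 42073 bp with 1 replicate left out; its alternatives were chosen after seeing the data. No paired analysis was possible because ChIP and input share numbers but only ChIP lists give values, and a paired test over 2 ChIP lists could give no p below 0.5. Unknown depth limits every statement about sequence that was not called.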
